A study of Mus musculus with 16 samples.

Results

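Hepatocytes, the main cells of the liver, were followed here through 30 genes that mark them, in liver and as traces in aorta. The genes are listed by name as hepatocyte genes; the rule uses no measured value, though the list was drawn up with earlier results of these data known. All 30 were found among the 24011 gene symbols counted. RNA sequencing covered 16 libraries in 4 groups of 4: aorta with vehicle, aorta with estradiol (E2, the main natural estrogen), liver with vehicle and liver with E2. All mice were wild-type C57BL/6 females whose ovaries had been removed when they were 6 to 7 weeks old, and the organs were taken 1 week after surgery. Aortas, or small samples from the end of the largest liver lobe, stood in medium outside the body for 4 h with 10 nM E2 or with the ethanol used as vehicle. Every library therefore came from ovariectomized mice and cultured tissue, and no group holds uncultured tissue.

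Per the labels, 8 libraries started from 50 ng of RNA in an Ovation kit and were read on 2 instruments, and the other 8 started from 600 ng in a TruSeq poly-A kit, each from 1 aorta or 1 liver fragment. The series text gives only 2 replicates per condition, each of 4 mice. Columns of the count table carry a suffix, o1, o2, n1 or n2, which no label explains, so libraries are named by suffix and were assigned to groups by tissue and treatment alone. Counts summed over genes ran from 3896733 to 19823982 a library. Rn45s, a ribosomal RNA precursor, held 25.7% to 34.5% of the counts of liver libraries with suffix o. Since separate animals are not stated for every library, p-values measure the spread between these libraries, which may be partly technical.

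Hepatocytes make most of the proteins of blood plasma and take aged glycoproteins back up from it. They turn ammonia into urea, break down aromatic amino acids, glycine and glyoxylate, and oxidize foreign compounds with cytochromes P450. A small set of transcription factors, among them HNF4 alpha, HNF1 alpha and C/EBP alpha, is known to hold this program on in the adult liver. The aorta is built mainly from smooth muscle, endothelium and connective tissue, with fat around it.

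The label was borne out in liver. The 30 genes together took 5.05% to 17.0% of all gene counts in the 8 liver libraries, and none was at 0 in any of them. In the 8 aorta libraries they took 0.0197% to 0.0645%. Per kilobase of exon, Alb, which encodes serum albumin, had the highest level of the 30 in liver and Ttr, which encodes the thyroid hormone and retinol carrier transthyretin, the next, in o and in n libraries alike. Gldc, which encodes the glycine decarboxylase of mitochondria, stood at rank 30 in the o libraries and rank 28 in the n libraries, and Hnf4a at rank 25 and rank 30.

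The first comparison set aorta against liver among the 8 vehicle libraries. All 30 genes were lower in aorta at an adjusted p under 0.05 and a log2 difference under -1 (quasi-likelihood test of edgeR, Benjamini-Hochberg adjustment), against 23.4% of the 12607 genes tested. Genes had to pass a filter on low counts to be tested, and these passed through liver, so that count is a description of liver genes and supports nothing further. The size of the difference separated them more. It ran from -4.13 ± 0.43 (log2, SE) for Rbp4, the plasma retinol carrier, to -11.23 ± 0.65 for Tat, the first enzyme of tyrosine breakdown. The genes nearest to Rbp4 were Fah at -5.70 ± 0.43, Cyp2e1 at -5.76 ± 0.54 and Gldc at -7.11 ± 0.39.

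The trace of each gene was expressed as a share, its counts scaled to a library of 1000000 counts (CPM, on TMM-scaled library sizes) in an aorta library as a percent of its mean CPM in the 4 liver libraries with the same suffix letter. The median share over the 30 genes was 0.233% in o1, 0.132% in o2, 0.0433% in n1 and 0.0668% in n2 of the vehicle aortas. With E2 it was 0.0826%, 0.0797%, 0.0302% and 0.0266% in the same order. Each E2 library had a lower median share than the vehicle library of its suffix, and o libraries had higher shares than n libraries of the same treatment. The 2 treatments overlapped, since the E2 value of o1 was above both vehicle values of n. When CPM were taken on plain total counts, the n libraries had medians of 0.0781% and 0.125% with vehicle and 0.0557% and 0.0504% with E2, more than 1.5 times the values above. With the mean of all 8 liver libraries as the base, the order of the letters did not hold: the medians were 0.0980% and 0.0650% in o against 0.0696% and 0.102% in n with vehicle, and 0.0191% and 0.0276% in o against 0.0474% and 0.0381% in n with E2. The E2 library was below the vehicle library of its suffix on each of these scales.

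**Figure D1:**
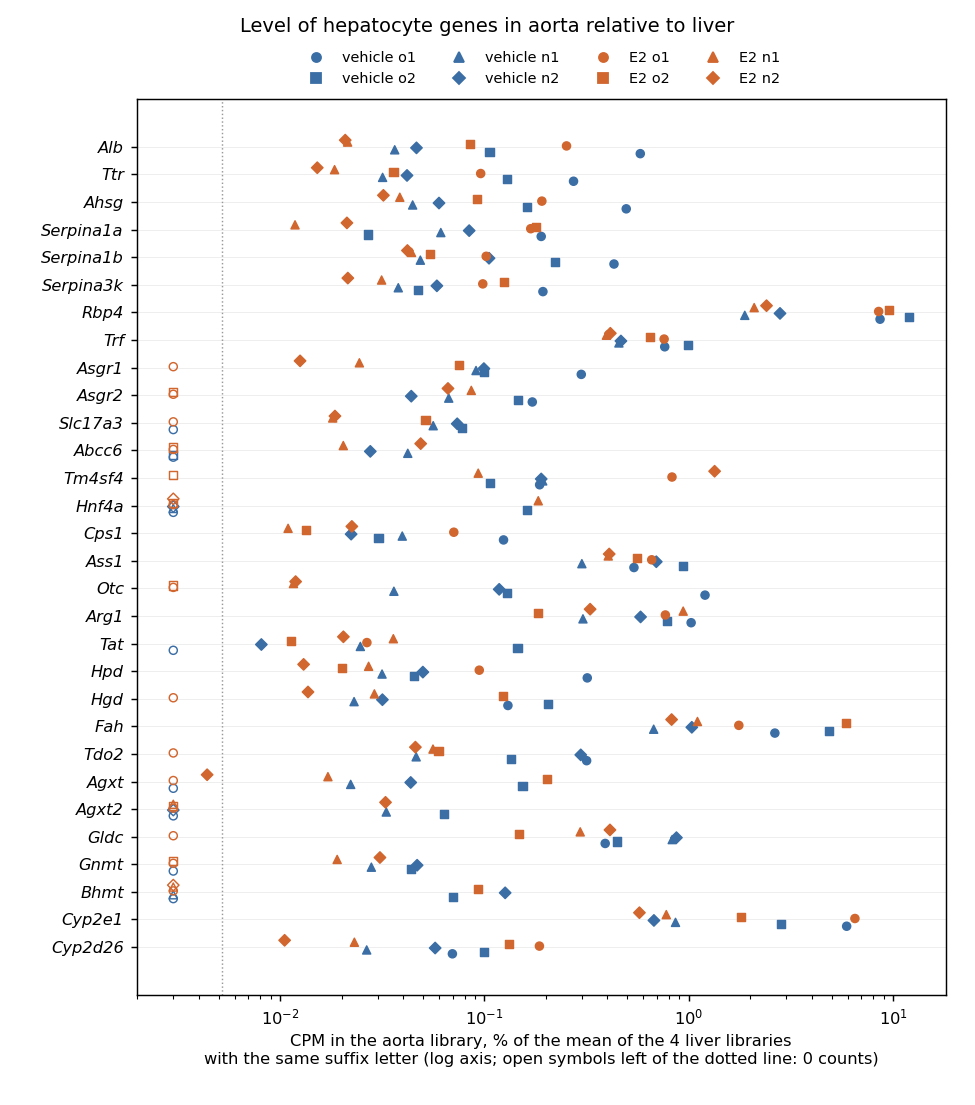
Level of each of the 30 genes in each aorta library (symbols; blue vehicle, orange E2), as a percent of the mean CPM of the 4 liver libraries with the same suffix letter, on a log axis; open symbols left of the dotted line are libraries with 0 counts. The median over the genes is 0.0607%, 12 of the 30 genes have a median share within 2 times it, and Rbp4 lies between 1.88% and 11.96%.

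Shares were far from even among the genes. The median of the 30 median shares was 0.0607%, and 4 genes stood over 10 times higher: Rbp4 at 5.65% (1.88% to 11.96% over the 8 aorta libraries), Fah at 1.43% (0.673% to 5.88%), Cyp2e1 at 1.33% (0.574% to 6.51%) and Arg1 at 0.675% (0.183% to 1.03%). Rbp4 is also known as a product of fat cells, Fah encodes the last enzyme of tyrosine breakdown, Cyp2e1 encodes the cytochrome P450 that oxidizes ethanol, and Arg1 encodes the arginase that releases urea and is also known from macrophages. Trf, the gene of the plasma iron carrier transferrin, followed at 0.556%, Ass1 (argininosuccinate synthase) at 0.549% and Gldc at 0.401%. Between any pair of the 8 aorta libraries, the Spearman rho of the 30 shares was 0.298 to 0.838 (28 pairs), a description across genes that share their liver denominator. For the other 26 genes, the median share was 0.0387% to 0.188% in the vehicle aortas and 0.0133% to 0.0569% in the E2 aortas.

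Many traces were single reads. Counts of 0 were found for 8, 1, 2 and 2 of the 30 genes in the vehicle libraries o1, o2, n1 and n2 of aorta and for 13, 7, 2 and 2 in the E2 libraries. A count of 0 allows up to 3 counts, which is 0.115 to 0.510 CPM over the 8 aorta libraries and covers counting error only. The 2 o1 libraries, which hold the most zeros, are also the shallowest of aorta, at 6042073 and 6471319 counts. In bulk tissue, fewer cells of a type and less RNA per cell cannot be told apart.

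In aorta, E2 was compared with vehicle over 13698 genes. No gene passed an adjusted p of 0.05 (0%) by edgeR's quasi-likelihood test, where 495 had an unadjusted p under 0.05, and DESeq2 called 24. With the suffix as a replicate block 12 genes passed, none of them among the 30. Only 15 of the 30 genes passed the filter on low counts: 13 had lower and 2 higher estimates with E2, with a median of -0.43 (log2), against -0.01 over all genes tested. Of these 15, 6 had an unadjusted p under 0.05 and were lower, where 2.05% of all genes did so. Leaving out any 1 library gave a median of -0.71 to -0.30. It was -0.71 without o2 of the vehicle or of the E2 libraries and -0.68 without n1 of the E2 libraries, where 16 of the 30 genes were tested. It was -0.30 without n2 of the vehicle libraries, where 15 were tested and 4 had an unadjusted p under 0.05 in edgeR. Of all 13867 genes tested there, 699 had such a p in either direction. In that setting 17 genes passed, none of them among the 30. The 6 genes with an unadjusted p under 0.05 over all 8 libraries were Ttr, Alb, Ahsg, Serpina1b, Hpd and Gldc. The 15 that were not tested are Serpina1a, Asgr1, Asgr2, Slc17a3, Abcc6, Hnf4a, Cps1, Otc, Tat, Hgd, Tdo2, Agxt, Agxt2, Bhmt and Cyp2d26.

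The secreted plasma proteins had 7 of 8 genes tested, and all 7 had lower estimates with E2 (median -0.84). Ttr stood at 14.6, 6.94, 4.70 and 6.18 CPM in o1, o2, n1 and n2 with vehicle and at 5.14, 1.92, 2.73 and 2.25 CPM with E2. Every E2 library was below its vehicle library, though the groups overlapped, as o1 with E2 was above n1 with vehicle. The log2 difference was -1.41 ± 0.26 (SE, n = 4), with an adjusted p of 0.517 in edgeR, 0.124 with the replicate block and 0.00217 in DESeq2.

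Alb stood at 309.7, 56.6, 32.5 and 41.6 CPM with vehicle and at 134.8, 45.2, 19.1 and 18.6 CPM with E2. The o1 libraries were the highest in both groups, each E2 library was below its vehicle library and the groups overlapped. The log2 difference was -0.88 ± 0.19, with an adjusted p of 0.731 in edgeR and 0.0400 in DESeq2. Leaving out any 1 library gave -1.06 to -0.77. Ahsg, which encodes the plasma glycoprotein fetuin-A, stood at -0.84 ± 0.22 and passed, with Ttr, in the o libraries alone (adjusted p 0.0217 and 0.00480 in edgeR). Serpina1b, an alpha-1-antitrypsin gene, stood at -1.29 ± 0.41.

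Trf stood at 41.9, 54.2, 115.8 and 118.5 CPM with vehicle and at 41.6, 35.5, 100.6 and 105.2 CPM with E2, a log2 difference of -0.27 ± 0.16. The n libraries were above all o libraries, and within a letter the groups lay close together. Rbp4 stood at -0.13 ± 0.18 and Serpina3k, a serine protease inhibitor gene, at -0.43 ± 0.49. The 2 secreted genes with the largest shares thus had estimates nearer to 0 than Ttr and Alb, a contrast seen after their values were known and not tested.

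**Figure D2:**
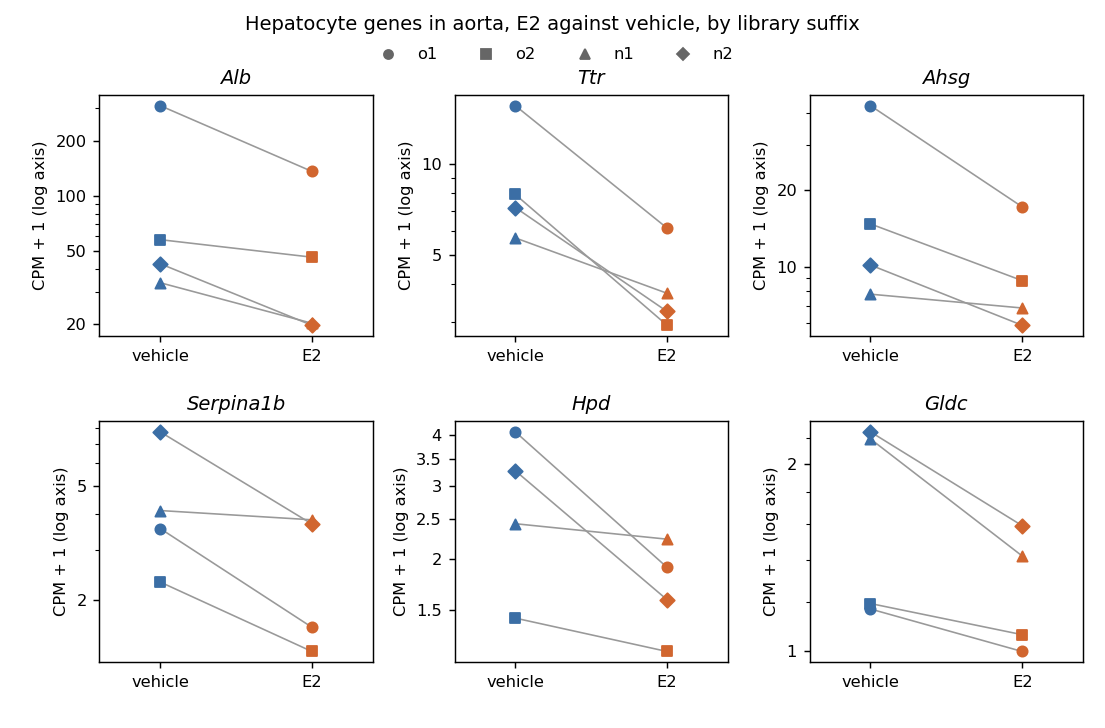
CPM + 1 on a log axis in each aorta library (1 symbol a suffix; blue vehicle, orange E2) for the 6 genes with an unadjusted p under 0.05, with lines joining the vehicle and E2 library of a suffix. Each of the 6 genes was lower with E2 in all 4 suffixes.

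Promoters were searched for letters that liver factors are known to bind. The 100 bases before the start are printed for the 3 secreted genes in which such letters were found, Alb, Serpina1a and Serpina1b, and for Cyp2e1, whose share stood apart. In Ahsg and Rbp4 none of the HNF1, HNF4 and C/EBP letters was found, and Ttr, Serpina3k and Trf were not searched. They come from RefSeq on build GRCm38.p6, at chr5:90460770-90460869 (plus strand), chr12:103863620-103863719 (minus), chr12:103738190-103738289 (minus) and chr7:140763719-140763818 (plus). Capitals mark the HNF1 half-site GTTAAT or, in Cyp2e1, the TATA box TATAAA.
Alb: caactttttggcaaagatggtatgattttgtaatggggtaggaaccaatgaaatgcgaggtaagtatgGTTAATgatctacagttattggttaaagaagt
Serpina1a: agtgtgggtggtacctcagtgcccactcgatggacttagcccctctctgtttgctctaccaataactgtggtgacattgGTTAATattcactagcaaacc
Serpina1b: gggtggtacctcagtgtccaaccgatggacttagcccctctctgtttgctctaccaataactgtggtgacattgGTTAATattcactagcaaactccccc
Cyp2e1: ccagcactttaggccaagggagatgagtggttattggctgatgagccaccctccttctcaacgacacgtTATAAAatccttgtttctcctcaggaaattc

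GTTAAT began 32 bases before the start in Alb, 21 in Serpina1a and 26 in Serpina1b, and TATAAA 31 bases before it in Cyp2e1. A promoter of 300 bases (250 before to 50 after the start) was found for 24 of the 30 genes. GTTAAT, searched on both strands, was in 6 of these 24, against 7.1% of 32851 promoters of mouse genes. Here and for the letters below, a gene with more than 1 promoter counted if any of them held the letters. The percentages over the mouse count promoters rather than genes, so the base differs. The HNF4 letters CAAAGTCCA (both strands) were in 1, Agxt2, against 0.475%, the C/EBP letters TTGCGCAA (both strands) in 0 against 0.183%, and TATAAA (gene strand only) in 4 against 8.32%. None of these letters overlaps another motif searched here. TATAAA began 28 bases before the start in a promoter of Rbp4 and 229 bases before it in Tdo2. In Tm4sf4 it began at base 4 of the transcript, so the count of 4 does not depend on position. Serpina1a and Serpina1b share a run of 72 bases in the windows shown, and 63.2% and 40.1% of the 36-base stretches of their transcripts occur in other genes, mainly their own paralogs, so reads may be split between them.

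The genes of the hepatocyte surface were near the limit of counting in aorta. Asgr1 and Asgr2 encode the asialoglycoprotein receptor, which removes aged glycoproteins from blood, Slc17a3 an organic anion transporter, and Abcc6 a transporter that acts against calcification of arteries. Abcc6 had 0, 0, 6 and 2 counts in o1, o2, n1 and n2 with vehicle and 0, 0, 3 and 7 counts with E2, so neither treatment stood higher. Asgr1 had 6, 7, 36 and 20 counts with vehicle and 0, 4, 10 and 5 with E2, lower in all 4 suffixes. Asgr1 did not pass the filter, which left it without a test in aorta alone.

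Tm4sf4, a tetraspanin-like membrane protein gene, was the only tested member of this group. It stood at 0.170, 0.0970, 0.557 and 0.548 CPM with vehicle and at 0.756, 0, 0.269 and 3.87 CPM with E2. The estimate of 1.54 ± 0.95 rested on the n2 library with E2, whose 98 counts set it apart from at most 14 in the others, and it was -0.41 without that library. Hnf4a, the one transcription factor among the 30, had 3 counts in o2 with vehicle, 2 in n1 with E2 and 0 in the other 6 aorta libraries, against 78.9 ± 33.6 CPM in vehicle liver (SD, n = 4).

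Of the urea cycle genes, Ass1 and Arg1 were tested and Cps1 and Otc were not. Cps1, which encodes the mitochondrial enzyme that commits ammonia to urea, stood at 2.38, 0.582, 0.279 and 0.157 CPM with vehicle and 1.36, 0.257, 0.0770 and 0.158 CPM with E2. The o1 libraries were highest in both groups, and 3 of the 4 suffixes were lower with E2. Ass1, which joins citrulline to aspartate, stood at 1.36, 2.38, 2.03 and 4.70 CPM with vehicle and 1.66, 1.41, 2.73 and 2.76 CPM with E2 (-0.31 ± 0.37). Arg1 stood at 3.23, 2.47, 2.99 and 5.71 CPM against 2.42, 0.577, 9.24 and 3.24 CPM (-0.23 ± 0.54). For both genes the groups overlapped widely and the suffixes disagreed in direction.

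Otc, which makes citrulline, was the only one of the 30 genes whose vehicle and E2 aortas did not overlap, against 0.269% of the 18989 genes with a count in some aorta library for which every E2 library was below every vehicle library. Its counts were 8, 3, 3 and 5 with vehicle and 0, 0, 1 and 1 with E2, too few to pass the filter. It was singled out after its values were seen, and no test in aorta alone stands behind it.

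Hpd and Fah were tested among the genes of tyrosine and tryptophan breakdown, and Tat, Hgd and Tdo2 (tryptophan dioxygenase) were not. Hpd, which encodes the dioxygenase that makes homogentisate, stood at 3.06, 0.437, 1.43 and 2.27 CPM with vehicle and at 0.907, 0.192, 1.23 and 0.592 CPM with E2 (-1.21 ± 0.43, adjusted p 1 in edgeR). All 4 suffixes were lower with E2, and the groups overlapped. Fah stood at 4.08, 7.52, 12.2 and 18.8 CPM with vehicle and 2.72, 9.11, 20.01 and 14.96 CPM with E2 (0.06 ± 0.25), with 2 suffixes lower and 2 higher.

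Gldc and Gnmt were tested among the genes of glyoxylate, glycine and methyl group metabolism. Gldc stood at 0.170, 0.194, 1.19 and 1.25 CPM with vehicle and at 0, 0.0641, 0.423 and 0.592 CPM with E2 (-1.38 ± 0.50, adjusted p 1 in edgeR). Each E2 library was below its vehicle library, and n libraries were above o libraries in both groups. Gnmt, which encodes a glycine methyltransferase, stood at 0, 0.0970, 1.08 and 1.80 CPM against 0, 0, 0.731 and 1.18 CPM (-0.74 ± 0.60). Agxt and Agxt2, 2 glyoxylate aminotransferases, and Bhmt, which remethylates homocysteine, had at most 5 counts in any aorta library.

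Cyp2e1 stood at 192.1, 91.7, 48.1 and 37.7 CPM with vehicle and 210.9, 58.3, 43.4 and 32.04 CPM with E2 (-0.24 ± 0.19). The o libraries were above the n libraries in both groups, and 3 of 4 suffixes were lower with E2. Cyp2d26, another P450 gene, was too low in aorta to be tested.

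Over all 30 genes, 9 were lower with E2 in all 4 suffixes of aorta (Alb, Ttr, Ahsg, Serpina1b, Trf, Asgr1, Otc, Hpd and Gldc) and 0 were higher in all 4. Of the 18989 genes with a count in aorta, 5.35% were lower and 6.22% higher in all 4. Of the 15 genes that were tested, 7 were lower in all 4 and 0 higher, against 6.42% and 8.06% of the 13698 genes tested. The median difference of log2(CPM + 1) was -0.13 in o1, -0.20 in o2, -0.11 in n1 and -0.39 in n2. Many of the 30 genes lie under 1 CPM in aorta, and 7 were equal in o1. The added 1 thus pulls these medians toward 0, and they are not on the scale of the fitted median.

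**Figure D3:**
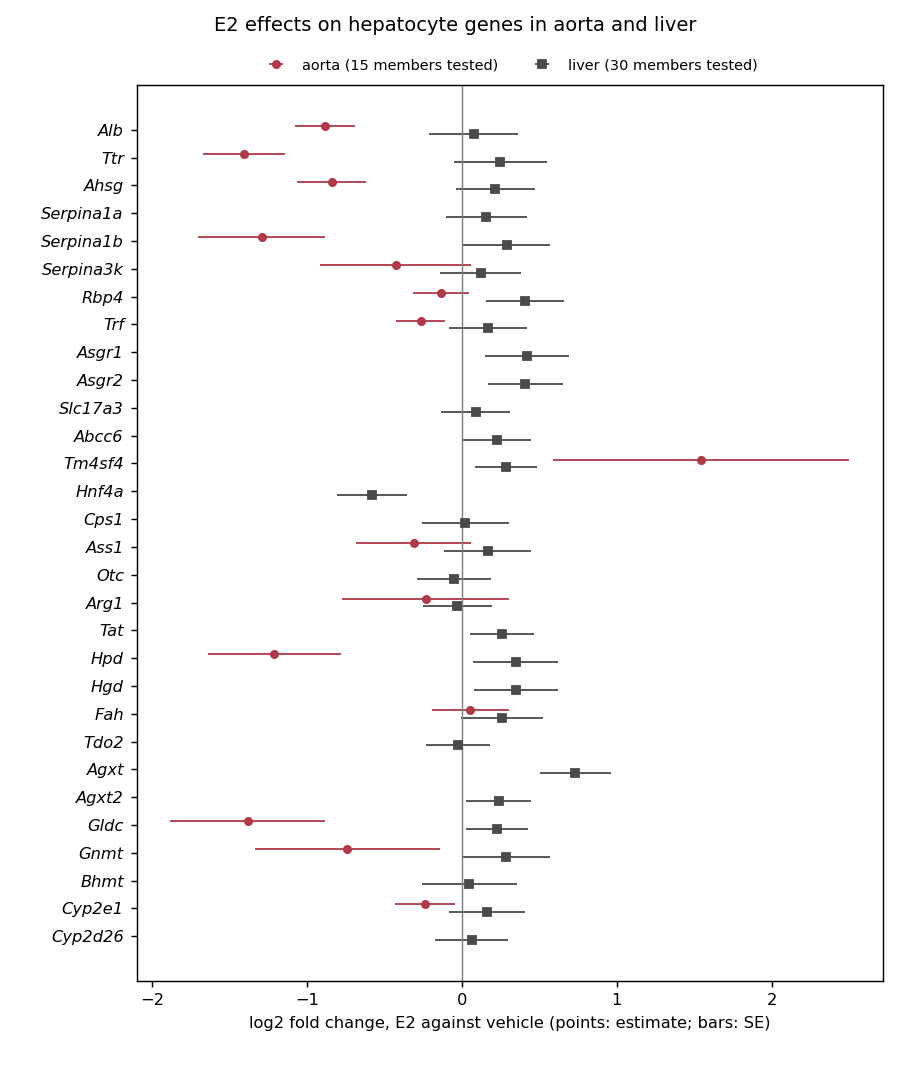
Log2 fold change of E2 against vehicle with its SE for the 15 genes tested in aorta (red circles) and the 30 tested in liver (grey squares). Aorta estimates lie mostly left of 0 and liver estimates mostly right of it, and no gene passed an adjusted p of 0.05 in either tissue.

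In liver, E2 was compared with vehicle over 11726 genes, and none passed (0%) by edgeR's quasi-likelihood test. An unadjusted p under 0.05 was reached by 502 genes, and DESeq2 called 0. All 30 genes were tested: 26 had higher and 4 lower estimates, with a median of 0.22 (log2), against -0.01 over all genes. An unadjusted p under 0.05 was reached by 1 gene in each direction, where 1.73% of all genes reached it as lower and 2.55% as higher. Hnf4a was the lower one, at 93.1, 119.6, 54.4 and 48.4 CPM with vehicle and 74.6, 73.2, 44.8 and 20.3 CPM with E2 (-0.58 ± 0.23, adjusted p 0.939 in edgeR). Agxt, which clears glyoxylate in peroxisomes, was the higher one, at 18.1, 39.3, 497.7 and 647.9 CPM against 25.9, 43.1, 1247 and 1200 CPM (0.73 ± 0.23, adjusted p 0.939 in edgeR). In both genes the vehicle and E2 groups overlapped. Beyond the batches used in the fit (o1, o2 and n), the suffix is not taken to pair the liver libraries. Libraries of one suffix are therefore set side by side below only as a description. In that sense both genes differed the same way in all 4 suffixes.

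The direction in liver followed the suffix letter. With E2, 24 of the 30 genes were lower in o1 and 27 in o2, while 29 were higher in n1 and 24 in n2. The median log2 difference was -0.31 with the o libraries alone and 0.56 with the n libraries alone. Ttr stood at 0.25 ± 0.30 over all 8 libraries and at -0.39 in the o libraries, Alb at 0.08 ± 0.29 and -0.38, Rbp4 at 0.41 ± 0.25 and -0.12, and Cps1 at 0.02 ± 0.28 and -0.45. Over all 8 libraries the median was 0.39 without vehicle o2 and 0.35 without E2 o2, and 0.10 without vehicle n1, 0.096 without vehicle n2 and 0.094 without E2 n2. The difference between the letters was not tested.

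**Figure D4:**
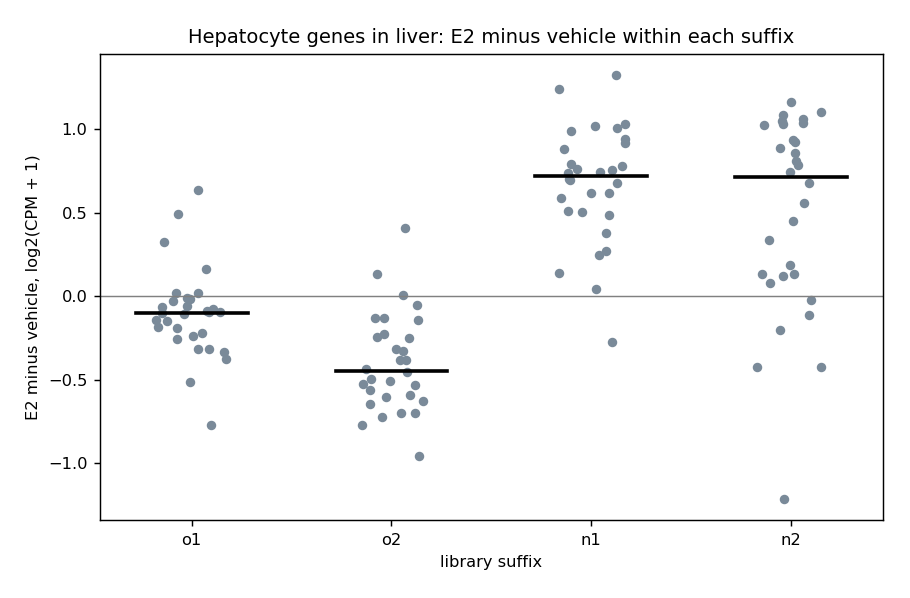
Difference of log2(CPM + 1) between the E2 and vehicle liver library of each suffix, 1 point for each of the 30 genes, with black lines at the medians. Beyond the batches used in the fit, these libraries are not taken as pairs. The medians are -0.10 in o1, -0.45 in o2, 0.72 in n1 and 0.71 in n2.

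The difference of the E2 effects, aorta minus liver, was tested over 14190 genes in all 16 libraries. By edgeR's quasi-likelihood test 0% of genes passed, with 761 at an unadjusted p under 0.05, and DESeq2 called 10. Among the 30 genes 28 had a lower estimate in aorta (median -0.89). The 15 genes too low for the test in aorta entered through their liver counts, so the count over the 30 supports nothing. An unadjusted p under 0.05 on the lower side was reached by 10 genes, 6 of the 15 tested in aorta and 4 of the 15 others, while 3.04% of all genes reached it, and nothing is read from that contrast. Of the 6, Ttr stood at -1.62 ± 0.39, Gldc at -1.53 ± 0.40, Hpd at -1.48 ± 0.46 and Ahsg at -1.03 ± 0.33, and Serpina1b and Alb were the others. Asgr1 (-2.52 ± 0.58, adjusted p 0.4928 in edgeR), Otc (-3.03 ± 0.83), Tdo2 and Agxt were the 4 that rest on few or no counts in aorta.

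The suffix letters were compared next, and most genes of the table differed between them: 61% of all genes tested passed in aorta and 69.5% in liver, in either direction. In aorta, n was compared with o with treatment as a covariate, at an adjusted p under 0.05 and an absolute log2 difference over 1. Of the 15 genes tested 11 passed, a share not far from that of all genes: 8 were higher in n, where 33% of all genes were, and 3 were lower, where 28.1% were. Alb (-2.34 ± 0.45), Cyp2e1 (-1.85 ± 0.35) and Ahsg (-1.54 ± 0.35) were lower in the n libraries, and Gnmt (4.63 ± 0.77) and Gldc (2.73 ± 0.59) were among the higher. Both Gnmt and Gldc reached the cutoff of the filter on low counts in 4 n libraries and 0 o libraries. They were thus tested only through the letter where they are high, and their part in the 8 supports nothing further. With vehicle libraries alone, 6 of the 10 listed genes tested passed in either direction, as did 5651 of all 10806 genes tested.

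In liver 23 of the 30 genes passed, again near the share of all genes. Of these, 21 were higher in n, where 33.7% of all genes were, and 2 were lower, where 35.7% were. The higher included Agxt (4.64 ± 0.32), Gnmt (3.97 ± 0.36), Fah (3.42 ± 0.33) and Serpina1b (3.29 ± 0.31), and the 2 lower were Cps1 (-1.55 ± 0.30) and Hnf4a (-1.20 ± 0.24). Alb (0.65 ± 0.30) had an adjusted p of 0.0623 in liver, while in aorta it was lower in n.

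**Figure D5:**
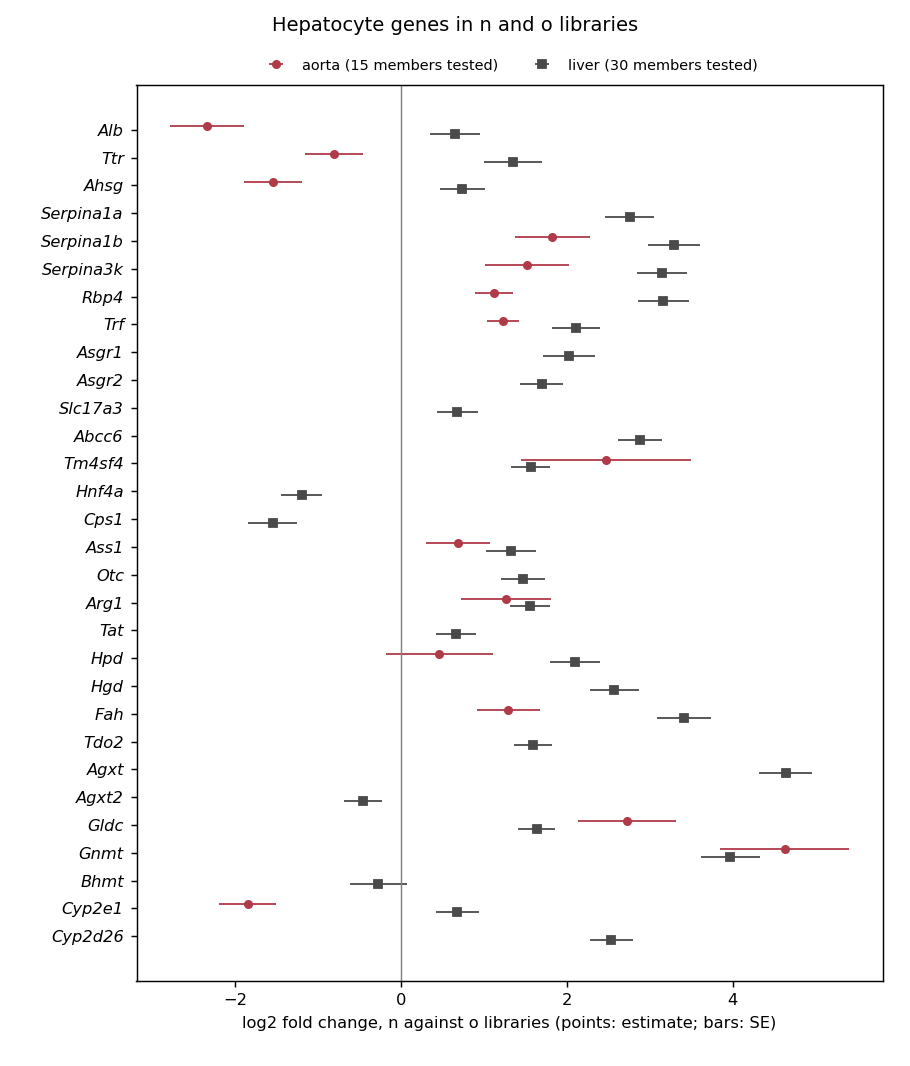
Log2 difference of n against o libraries with its SE, for the 15 genes tested in aorta and the 30 tested in liver. Alb, Ttr, Ahsg and Cyp2e1 lie left of 0 in aorta and right of it in liver, and Ttr passed the test only in liver.

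The other genes of these pathways, listed by their known roles, were read beside the 30. No gene of any such list passed the adjusted threshold for E2 in either tissue. Other hepatocyte transcription factors had 5 of 15 genes tested in aorta, 3 lower and 2 higher (median -0.10). The 2 with the lowest p were Cebpa, the gene of C/EBP alpha (0.38 ± 0.23), and Nr1h4, the bile acid receptor gene (-0.73 ± 0.81). The list of other urea cycle genes (Asl, Nags, Slc25a15, Slc25a13, Glul and Oat) had 3 of 5 lower (median -0.09), with Asl at -0.26 ± 0.25 and the carrier Slc25a13 at -0.45 ± 0.50. Its median share was 2.69%, against 0.288% for the 4 urea cycle genes among the 30. That contrast depends on the genes listed. In vehicle aorta Glul stood at 59.2, 70.7, 212.7 and 184.5 CPM and Oat at 51.2, 61.5, 302.3 and 193.2 CPM. In vehicle liver they stood at 238.5, 223.3, 170.0 and 243.2 CPM and at 141.6, 144.8, 249.1 and 539.0 CPM.

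Other genes of aromatic amino acid breakdown had 4 of 6 lower (median -0.17), with Haao, an enzyme of the tryptophan pathway, at -2.60 ± 0.85 and Kmo at -0.40 ± 0.46. Haao stood at 0.340, 0.582, 0.478 and 5.64 CPM with vehicle and at 0, 0.192, 0.423 and 0.434 CPM with E2. The size of its estimate leans on n2 with vehicle. Other genes of glycine, serine and methyl groups had 8 of 12 higher (median 0.11), with the lowest p for Cth (-0.41 ± 0.32) and Grhpr (-0.39 ± 0.35), both lower. Genes of the portal zone of the liver lobule had 5 of 7 lower (median -0.31), with Gldc, given above, and Cyp2f2 (-0.57 ± 0.42). Genes of the central zone had 5 of 9 lower (median near 0 at -0.0013), with the glutamate transporter Slc1a2 at 1.30 ± 0.50 and Cyp2e1.

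Markers of other liver cells were read in the aortas in the same way. Kupffer cell markers, of the resident macrophages of liver, had 6 of 6 tested genes lower with E2 (median -0.12) and a summed level of 54.4 to 143.9 CPM with vehicle and 66.5 to 127.7 CPM with E2. The markers differed widely in level, with a median share of 24.3% over the list. Clec4f, which marks Kupffer cells, had 12 counts in all 8 aorta libraries together, while C1qb had 95 to 1518 counts a library. The 2 genes with the lowest p were Marco (-2.14 ± 1.73) and C1qb (-0.13 ± 0.19). Marco stood at 0.340, 3.78, 0.159 and 28.3 CPM with vehicle and at 5.59, 2.12, 0.462 and 0.671 CPM with E2. Its n2 library with vehicle was far above the rest, and the suffixes disagreed in direction.

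Markers of liver sinusoidal endothelium had 6 of 7 lower (median -0.25), with sums of 61.6 to 145.0 and 62.2 to 125.7 CPM. Stab2, a scavenger receptor gene of these cells, stood at 2.80 ± 1.44 CPM with vehicle and 1.39 ± 0.895 CPM with E2 (-1.21 ± 0.52), and Fcgr2b at -0.98 ± 0.55. Clec4g had 25 counts over the 8 aorta libraries, while Stab1 had 73 to 2139 a library, and the median share of the list was 1.77%. Stellate cell markers had 5 of 8 lower (sums of 520.6 to 906.1 and 506.3 to 647.4 CPM), with Ecm1 at -0.20 ± 0.19 and Pth1r at -0.26 ± 0.35. Lrat, the vitamin A enzyme of stellate cells, had 2 counts over the 8 aorta libraries, while Ecm1 had 1037 to 14291 a library. The median share of the list was 13.6%. Bile duct markers had 3 of 5 lower (sums of 61.3 to 84.4 and 58.0 to 80.1 CPM), with Epcam at -1.02 ± 0.60 and Spp1 at -0.35 ± 0.30.

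The aorta carried its own cell types. Adipocyte markers summed to 3830 to 4826 CPM with vehicle and 3616 to 4578 CPM with E2, against 255.3 to 449.0 CPM in liver, with Ucp1 at 0.42 ± 0.22 and Plin1 at 0.27 ± 0.17 for E2. Smooth muscle markers summed to 11050 to 18180 and 10590 to 28860 CPM, with Lmod1 at 0.34 ± 0.22 and Des at 0.30 ± 0.21. Red blood cell genes had 2 of 6 tested, Slc4a1 (-0.21 ± 0.29) and Alas2 (0.10 ± 0.28). The part of any of these cells, or of liver RNA, in the traces and in their E2 differences was not tested.

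Counting could blur some of the 30 genes. Of the 36-base stretches of their transcripts in GENCODE M21, which is not the annotation the authors counted with, 62.4% of Trf, 41.9% of Ass1, 28.5% of Bhmt, 20.6% of Serpina3k and 13% of Cyp2d26 occur in other genes. Ahsg, Abcc6, Hnf4a, Hpd, Hgd, Gnmt, Bhmt and Gldc overlap a gene or pseudogene on the opposite strand, and the strand setting of the counting is not given in the sources used here. On the same strand, Trf overlaps Gm20425, Serpina3k overlaps Serpina3m, and Serpina1b overlaps Serpina1d and pseudogenes. Hpd, Hnf4a and Agxt2 also overlap another gene on their own strand. No strand setting separates same-strand overlaps.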

How the data were processed

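The deposited table holds counts per gene symbol, treated as estimated counts since a percentage closes each column. All gene values were whole, so rounding left them as they were. Per the submitters' processing notes, Bowtie 0.12.5, HTSeq 0.4.5p7, edgeR 3.4.2 and build mm9 were used. Annotation, strand setting and read filters: not given in the sources used here. Another 8 lines name no gene and were left out, and reads in no feature were 48.05% to 75.22% of a library.

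Tests used edgeR 4.0.16 in R 4.3.3 (glmQLFit, glmQLFTest, TMM, filterByExpr with minimum count 10 and minimum total 15, Benjamini-Hochberg adjustment over all genes tested), with a batch of 3 levels (o1, o2, n) as covariate. DESeq2 1.42.0 was an alternative. SE is the log2 difference divided by the square root of F. Scripts were tested on simulated data. Values in every library are given for the 2 tested genes of each role group with the lowest p in aorta and for Alb, Ttr, Hnf4a, Cps1, Gldc, Abcc6, Trf and Cyp2e1, and for other lists the 2 genes with the lowest p. Some further genes were added outside that rule, among them Clec4f, Clec4g, Lrat and Stab1. The members and lists were chosen with earlier results of these data known.

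The suffix was checked for pairing by the correlation across genes of deviations from the group mean. With the letter mean removed, r was 0.37 and 0.33 in aorta (o and n) and 0.25 and -0.06 in liver. The suffix was therefore read as a pairing only where aorta libraries are described, an assumption since no label states it. The main fits of both tissues used the same batches (o1, o2 and n), which hold o1 and o2 apart and pool n1 with n2. Pairing by every suffix entered only the replicate block.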

Additional observations from a re-analysis of the deposited data

Results flagged for a closer look

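Of 120 groups of 4 values examined (30 genes in 4 groups), 7 had 1 library far from the other 3, and chance alone flags about 1 in 20 such groups. All 7 lie in aorta. Alb stood at 309.7 CPM in the vehicle library o1, where the next highest was 56.6 CPM, and Cyp2e1 at 210.9 CPM in o1 with E2, where the next was 58.3 CPM. Cps1 stood at 1.36 CPM in o1 with E2, on 9 counts. The other 4 rest on 1 to 3 counts where every other library of the group was at 0: Hnf4a at 0.146 CPM in o2 with vehicle and 0.0770 CPM in n1 with E2, Agxt2 at 0.0395 CPM in n2 with E2 and Bhmt at 0.0641 CPM in o2 with E2.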

How the results depend on the processing

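Every setting left all 30 genes lower in aorta than in liver. For E2 in aorta, 24 genes passed with DESeq2 (2 of the 15 listed genes tested, Ttr and Alb) and 12 with the replicate block by suffix. In the o libraries alone 33 passed (2 of the 12 listed genes tested, Ttr and Ahsg). Leaving out 1 library gave 0 to 17, with 17 without vehicle n2. The median of the genes tested was -0.78 with no filter, -0.87 in the o libraries alone and -0.71 to -0.30 leaving out 1 library. Arg1 was 0.53 in the n libraries alone and -0.84 to 0.26 leaving out 1 library, Fah -0.051 in the o libraries alone and -0.057 to 0.24, Tm4sf4 -0.41 to 2.13 and Ass1 -0.52 to 0.017. In liver, 6 genes passed with no filter, 5 in the o and 1 in the n libraries alone, and 0 to 1 leaving out 1 library, 1 without vehicle o2 or E2 o2. The o libraries alone gave a median of -0.31, with Ttr at -0.39, Rbp4 -0.12, Alb -0.38 and Cps1 -0.45, and Cps1 was -0.035 with the replicate block. Leaving out 1 library gave Ttr -0.014 to 0.61, Alb -0.084 to 0.36 and Cps1 -0.33 to 0.25. For aorta minus liver, 10 genes passed with DESeq2, 1 with the replicate block, 2 in the o libraries alone and 0 to 4 leaving out 1 library, 4 without aorta vehicle n1. For n against o in aorta, the median was 0.81 with no filter and 0.98 to 1.22 leaving out 1 library. With vehicle libraries alone it was 0.78, and 6 of the 10 listed genes tested passed, as did 5651 of all 10806 genes tested. In liver Bhmt was -0.74 to 0.052 leaving out 1 library. With all 8 liver libraries as the denominator, the median share was 0.0980% in vehicle o1, 0.0191% in E2 o1 and 0.0276% in E2 o2. The replicate block changed no call among the 30 genes. For aorta against liver it called 5844 of all genes, where the main fit called 5986. The causes were not tested. Depth limits the traces: 3 to 15 of the 30 genes had under 3 counts in an aorta library.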
